A study of Homo sapiens with 2 samples.

Results

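The genes described here are 10 genes whose loss causes primary microcephaly and whose products work at the centrosome, the mitotic spindle, the kinetochore or the midbody: ASPM, WDR62, CDK5RAP2, MCPH1, CENPJ, STIL, CEP152, CEP135, KNL1 and CIT. They were taken by gene name, by a rule that uses no measured value, from the 62704 genes of the count tables, and all 10 were found by 1 Ensembl identifier each in both libraries. All 10 passed the minimum of 50 counts that was asked of a gene before a fold was read. The material was cerebral organoids of the human embryonic stem cell line H9, profiled by split-seq, a method that labels the RNA of fixed cells or nuclei by passing them through rounds of barcoded wells. One library held single cells of control organoids (CO, grown with a commercial cerebral organoid kit and sampled at days 45, 55 and 70), of dissociated organoids (DISS, taken apart at day 45, reaggregated and sampled at days 48, 55 and 70) and of constrained organoids (CONS, freed of Matrigel at day 13, embedded in 3% agarose and sampled at day 55). The other library held nuclei, which the methods describe as day 45 CO, whole or as single-cell suspensions, while its label also names embedding. All groups shared the one parental line and the same organoid protocol.

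Every barcode of a library carried the same sample name, so that neither condition, day nor organoid could be assigned. Each library was therefore 1 sample, nothing was tested and no p-value is given. Intervals are exact 95% intervals and cover counting error only, and ranges over sub-libraries (8 for cells, 2 for nuclei) show technical spread. A barcode entered the comparisons if it had over 500 genes, over 1000 transcripts and a mitochondrial share of no more than 20%. This held for 20178 of 1303455 barcodes of the cells (median 2615 transcripts) and 14228 of 197446 of the nuclei (median 3890). Of the kept barcode names, 99 occurred in both libraries. The background, meaning RNA outside cells, was read from barcodes that had between 10 and 100 transcripts. A cell cluster of 458 barcodes with a median of 29708.5 transcripts held 15.4% of all transcripts of the kept cells.

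Primary microcephaly is a reduction of brain size that begins before birth and is attributed to a shortage of neural progenitors. Radial glia, the progenitors of the cortex, divide at the ventricular surface, where centrosome number and spindle position bear on how daughters are set apart. Centrioles are copied once per cell cycle, starting around the entry into S phase, and the copied centrosomes form the spindle poles in mitosis. Transcripts of many mitotic genes accumulate in G2 and M phase, and their promoters often carry CCAAT boxes, which bind NF-Y, and a cell cycle homology region (CHR), which binds the DREAM and MuvB complexes, while E2F sites are typical of genes of the G1/S transition.

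Promoter sequences were taken from RefSeq (GRCh38.p14), in windows from 250 bases before to 50 bases after the annotated start. They were read for 8 of the 10 genes, which leaves out KNL1 and MCPH1. The bases upstream of annotated exons are shown for a pair of genes found below to be bound to dividing cells, ASPM and CIT, and for a pair less concentrated in such cells, CDK5RAP2 and CENPJ. Capitals mark CCAAT boxes (CCAAT), CHR motifs (TTTGAA or TTCGAA) and E2F motifs (TTTCGCGC, TTTGGCGC, TTTCCCGC or TTTGCCGC), each searched on both strands. On the opposite strand a CCAAT box reads ATTGG and TTTGAA reads TTCAAA. No E2F motif lies in the stretches shown, and in CIT a CCAAT box abuts a CHR motif without overlap. The stretches lie at chr1:197146695-197146919 for ASPM, chr12:119877321-119877570 for CIT, chr9:120580171-120580417 for CDK5RAP2 and chr13:24922890-24923111 for CENPJ, all on the minus strand and written 5′ to 3′ as transcribed.
ASPM: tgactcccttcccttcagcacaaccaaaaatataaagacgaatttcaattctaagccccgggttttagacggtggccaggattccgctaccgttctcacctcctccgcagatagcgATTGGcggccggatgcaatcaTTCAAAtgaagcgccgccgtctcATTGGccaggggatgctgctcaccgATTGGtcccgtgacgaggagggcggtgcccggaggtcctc
CIT: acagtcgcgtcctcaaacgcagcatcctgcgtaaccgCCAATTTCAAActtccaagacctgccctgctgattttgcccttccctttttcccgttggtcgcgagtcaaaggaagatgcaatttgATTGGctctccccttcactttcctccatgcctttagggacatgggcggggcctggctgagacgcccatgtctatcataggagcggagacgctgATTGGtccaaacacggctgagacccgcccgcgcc
CDK5RAP2: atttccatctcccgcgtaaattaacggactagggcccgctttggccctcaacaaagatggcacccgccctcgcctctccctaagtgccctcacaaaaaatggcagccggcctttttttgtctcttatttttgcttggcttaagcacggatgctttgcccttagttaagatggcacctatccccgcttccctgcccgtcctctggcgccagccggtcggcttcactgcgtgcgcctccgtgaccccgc
CENPJ: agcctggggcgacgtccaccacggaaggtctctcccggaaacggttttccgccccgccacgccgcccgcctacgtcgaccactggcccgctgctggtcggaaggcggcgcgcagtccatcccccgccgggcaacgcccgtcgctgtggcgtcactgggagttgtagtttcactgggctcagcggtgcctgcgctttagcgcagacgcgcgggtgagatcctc

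At least 1 CCAAT box was found in the window of 5 of the 8 genes, compared with 34.6% of 35116 RefSeq promoters, and at least 1 CHR motif in 5 of 8, compared with 16.4%. Windows with 3 or more CCAAT boxes were those of ASPM, CIT, WDR62 and STIL, 4 of the 8, and made up 3.26% of all promoters. The window of ASPM held 4 CCAAT boxes, of which 3 are printed above and 1 lies within annotated exon sequence, and 1 CHR motif, which starts 113 bases before the annotated start. CIT had 3 CCAAT boxes and 2 CHR motifs, 1 of them downstream of the start. An E2F motif was found in WDR62 and STIL, and in 3.31% of all promoters. CEP152 carried 2 CCAAT boxes and 1 CHR motif. The windows of CDK5RAP2, CENPJ and CEP135 held no CCAAT box. CDK5RAP2 had 1 CHR motif, in exon sequence 44 bases after the start and so not printed, and CENPJ had none of the motifs searched. A match describes the letters of this window only.

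Dividing cells were identified from clusters built without any of the 10 genes. Clusters were named from marker lists, and a cluster was called G2/M-led or S-led when at least 0.5 of that list was raised (1.5 times the other barcodes) and at least 3 of its markers stood among the 10 leading genes by fold. Among 22 clusters of the cells, 2 were G2/M-led, with 852 and 1355 barcodes, and together they made up 10.9% of the kept barcodes. The smaller also had 35 of the 39 S markers raised, and the larger 6. The larger was shallower (median 1438 transcripts against 8880.5) and drew 29.7% of its barcodes from 1 of the 48 first-round wells. Among 19 clusters of the nuclei, 1 was G2/M-led (775 barcodes, 42 of 42 G2/M markers raised) and 1 was S-led (1308 barcodes, 36 of 39 S markers raised), 14.6% of the kept nuclei. The S-led nuclei also had 29 of the 42 G2/M markers raised. Some radial glia markers were raised in each of these clusters, 7 of 12 in the G2/M-led nuclei, 5 of 12 in the S-led nuclei, and 7 and 3 of 12 in the clusters of cells. Other clusters were called radial glia-like, intermediate progenitor-like, excitatory neuron-like, Cajal-Retzius-like, choroid plexus-like or cortical hem-like, and 12 clusters of cells (50.2% of the cells) and 5 of nuclei (14.6%) stayed unnamed.

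Levels were compared as CPM, counts scaled to a total of 1000000, and as the ratio of the CPM in the dividing clusters to those in all other kept barcodes. A gene was called bound to dividing progenitors at a ratio of 4 or more, broad at under 2-fold in either direction, and intermediate between. ASPM, KNL1, CIT and WDR62 were bound in both libraries, MCPH1 was broad in both, and CENPJ, CEP152 and CDK5RAP2 were intermediate in both. STIL and CEP135 fell on either side of the limit, intermediate in cells and bound in nuclei. Thus 4 of 10 genes in cells and 6 of 10 in nuclei were bound, compared with 0.573% of 28471 genes in cells and 0.963% of 20150 genes in nuclei. The calls in cells rested on the smaller, deeper dividing cluster. With it alone, 5 of 10 genes were bound, compared with 0.753% of 28403 genes, and with the larger cluster of 1355 barcodes alone, 0 of 10 were, compared with 0.334% of 28181. In the larger cluster ASPM was 3.44-fold higher than in the other cells (3.20 to 3.69), KNL1 2.87-fold, CIT 2.16-fold and WDR62 1.59-fold (1.29 to 1.94), and the other 6 genes were under 2-fold. In nuclei, 6 of 10 genes were bound in the G2/M-led cluster alone, compared with 1.15% of 19831 genes, and 3 of 10, WDR62, KNL1 and CIT, in the S-led cluster alone, compared with 0.707% of 19947. Broad expression, seen for 1 of the 10 with the clusters together, was the state of 81.5% of genes in cells and 79.2% in nuclei. The intermediate genes also ranked high among all genes. In cells, the ratios of CDK5RAP2 and CENPJ were each at least those of 98.3% of genes. In nuclei, the shares were 97.9% for CDK5RAP2 and 98.3% for CENPJ. For MCPH1 they were 62.3% in cells and 61.5% in nuclei. The median ratio of the 10 genes was 3.54 in cells and 4.48 in nuclei, and that of all genes 0.857 and 0.912.

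**Figure D1:**
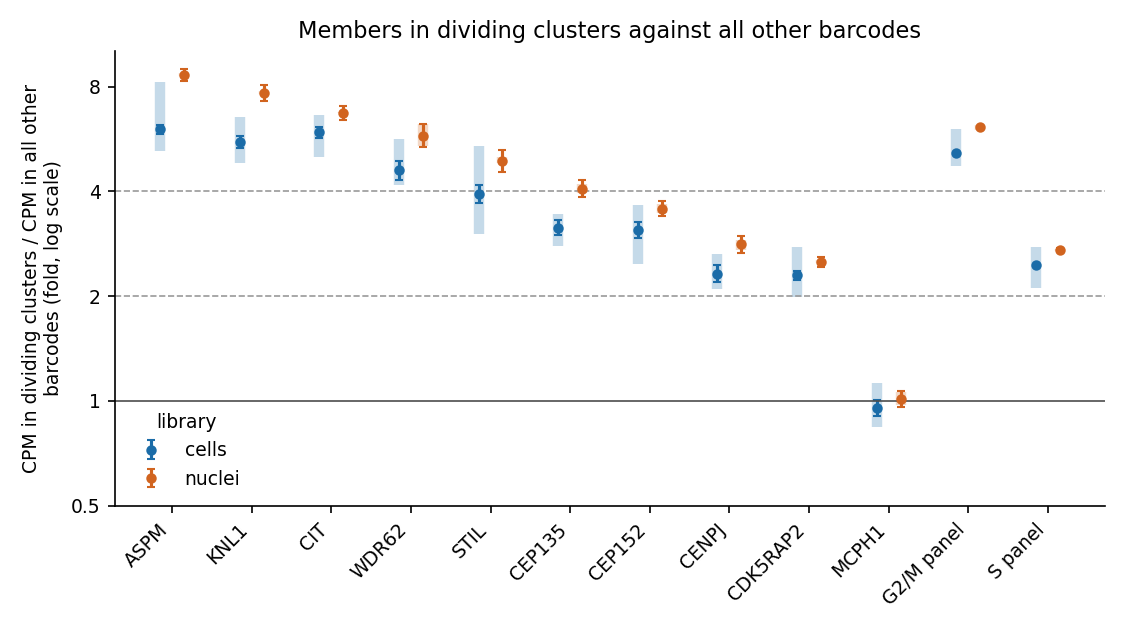
Ratio of CPM in dividing clusters to CPM in all other barcodes (y axis, log scale) for each gene and for the summed G2/M and S marker panels (x axis), in cells (blue) and nuclei (orange). Points carry exact 95% counting intervals, shaded bars span the sub-libraries and dashed lines mark 2-fold and 4-fold. ASPM lies highest in nuclei, at 8.66, and at 6.04 in cells, where its interval overlaps that of CIT. MCPH1 lies lowest, at 0.955 in cells and 1.01 in nuclei.

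ASPM, a microtubule minus-end protein of the spindle poles and the gene most often mutated in primary microcephaly, had the highest ratio of the 10 in nuclei. In cells its interval overlapped that of CIT (5.70 to 6.15), so that this pair could not be ordered. In the smaller, deeper dividing cluster of the cells alone, CIT stood at 6.96 and ASPM at 6.76. The level of ASPM was 554 CPM in dividing cells (6793 counts) and 91.6 CPM in all other cells, a ratio of 6.04 (5.87 to 6.22) that ranged from 5.24 to 8.24 over the 8 sub-libraries. In nuclei it was 539 CPM against 62.2 CPM, a ratio of 8.66 (8.31 to 9.02), with 8.58 and 8.77 in the 2 sub-libraries. A ratio of CPM does not say where most transcripts lay. In cells, more ASPM counts lay outside the dividing clusters (13288) than within them. The same held in cells for CIT (8213 against 4114), KNL1 (7180 against 3366) and WDR62 (3476 against 1352). In nuclei, ASPM had 6056 counts within and 3792 outside. Among first-round wells with at least 20 dividing barcodes, whose condition is unknown, ASPM was higher in dividing barcodes in 15 of 15 wells of cells and 12 of 12 of nuclei, and at least 4-fold higher in 12 and 10 of them. It was also 1 of the 10 leading genes of the G2/M-led nuclei, although it had been left out of the clustering.

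WDR62, a WD-repeat protein of the spindle pole, was 4.60-fold higher in dividing cells (4.31 to 4.90, 110.2 against 24.0 CPM) and 5.78-fold higher in dividing nuclei (5.36 to 6.24, 127 against 21.9 CPM). The lowest sub-library of the cells gave 4.18, but with the mean over barcodes in place of summed counts the ratio in cells was 3.53, under the limit. CDK5RAP2, a scaffold of the pericentriolar material that recruits γ-tubulin, differed from these partners at the spindle pole. Its level was 405 CPM in dividing cells and 176 CPM in all others, a ratio of 2.30 (2.23 to 2.37), and 551 against 219.6 CPM in nuclei, a ratio of 2.51 (2.43 to 2.59). It had the highest CPM of the 10 genes outside the dividing clusters of both libraries, a comparison that is not corrected for gene length. In cells the ratio was under 2, and the call broad, when barcodes were chosen by division marker transcripts (1.60) or the mean over barcodes was used (1.87). CDK5RAP2 reached 4-fold in 1 of 15 wells of the cells and 0 of 12 wells of the nuclei.

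KNL1, the kinetochore scaffold that gathers the spindle checkpoint proteins, was 5.54-fold higher in dividing cells (5.32 to 5.77, 274 against 49.5 CPM) and 7.69-fold higher in dividing nuclei (7.30 to 8.11, 306 against 39.8 CPM). CIT, the citron kinase of the midbody needed for abscission, was close to it at 5.92 (5.70 to 6.15, 335 against 56.6 CPM) and 6.74 (6.43 to 7.07, 352 against 52.1 CPM). Both were at least 4-fold higher in 12 of 15 wells of cells and 10 of 12 wells of nuclei. The lowest well of the cells gave 0.889 for KNL1 and 1.32 for CIT. These 2 genes and ASPM lay at or above the ratio of the summed G2/M marker panel in both libraries (5.17 and 6.12), and WDR62 lay below it. The median ratio of the single G2/M markers was higher, at 5.85 in cells and 7.67 in nuclei. KNL1 in cells and CIT in nuclei lay below that median.

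Members that take part in centriole assembly came next. STIL, which starts the procentriole together with SAS-6, had ratios of 3.93 (3.70 to 4.18) in cells and 4.90 (4.54 to 5.28) in nuclei, on levels of 114 and 117 CPM in the dividing barcodes. CEP135, a protein of the centriolar cartwheel, stood at 3.15 (3.00 to 3.31) and 4.07 (3.85 to 4.30). CEP152, which brings the kinase PLK4 to the parental centriole, stood at 3.11 (2.95 to 3.27) and 3.57 (3.40 to 3.75), and CENPJ, which sets centriole length, at 2.32 (2.19 to 2.46) and 2.82 (2.67 to 2.98). In cells, the intervals of CEP135 and CEP152 overlapped, as did those of CENPJ and CDK5RAP2, so neither pair could be ordered. The calls of STIL in cells and of CEP135 in nuclei changed under several other settings and rested on ratios whose counting intervals included 4, and sub-libraries fell on both sides, from 3.02 to 5.42 for STIL in cells and 3.95 and 4.22 for CEP135 in nuclei. All of CENPJ, CEP152, CEP135 and CDK5RAP2 were higher in the dividing barcodes in each of the 15 and 12 wells, and STIL in 14 and 12.

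MCPH1 encodes microcephalin, a BRCT-domain protein that restrains chromosome condensation and takes part in the DNA damage response. It was the one gene without a higher level in dividing barcodes, with 124 CPM against 130.0 CPM in cells, a ratio of 0.955 (0.906 to 1.01), and 147 against 145 CPM in nuclei, a ratio of 1.01 (0.960 to 1.07). Over sub-libraries the ratio ran from 0.839 to 1.13 in cells and from 0.973 to 1.06 in nuclei. Its level in excitatory neuron-like barcodes was 140.3 CPM in cells and 150.1 CPM in nuclei, 1.12 and 1.13 times its level in the background. In the same neuron-like barcodes ASPM stood at 0.140 and 0.0820 of its background level. The MCPH1 locus is overlapped on the opposite strand by MCPH1-AS1 (8686 counts in cells and 4992 in nuclei, beside 20383 and 10473 for MCPH1) and by ANGPT2 (828 and 377). Whether the counting used strand is not given in the sources used here, so reads of these genes cannot be told apart from those of MCPH1 if it did not.

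Levels were next followed along the clusters of the nuclei. ASPM reached 1098 CPM in G2/M-led nuclei (1068 to 1130), 181 CPM in S-led nuclei, 146 CPM in the intermediate progenitor-like cluster, 59.8 CPM in radial glia-like nuclei and 11.2 CPM in excitatory neuron-like nuclei. KNL1 went from 502 CPM in G2/M-led nuclei to 36.9 CPM in radial glia-like and 8.03 CPM in neuron-like nuclei, and CIT from 550.2 to 46.5 and 24.3 CPM. WDR62 was at 5.04 CPM and STIL at 7.35 CPM in the neuron-like nuclei. In G2/M-led, radial glia-like and neuron-like nuclei, CEP152 stood at 227, 83.7 and 20.9 CPM, CENPJ at 175, 74.8 and 45.5 CPM and CDK5RAP2 at 634, 220.4 and 165 CPM. MCPH1 stood between 89.4 and 219.8 CPM in all 19 clusters, with its highest level in the intermediate progenitor-like cluster (202 to 239), where the G2/M panel was at 2259 CPM.

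**Figure D2:**
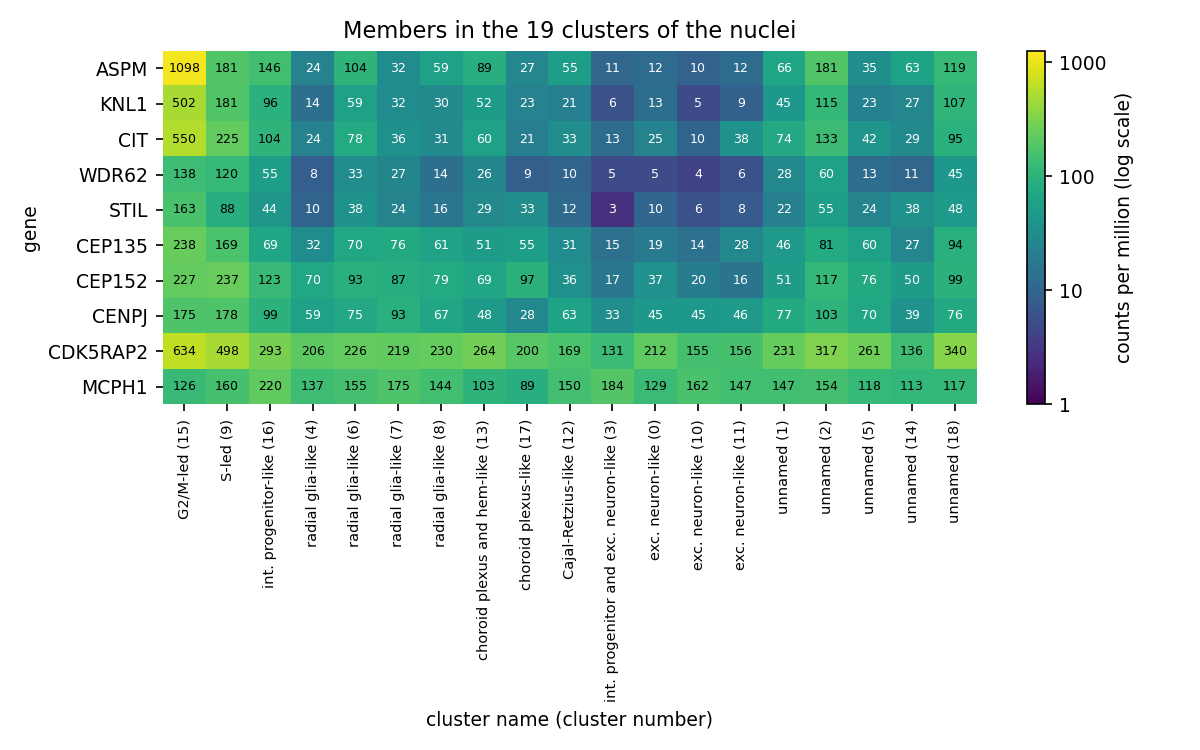
CPM (colour, log scale, values printed) of each gene (rows) in each cluster of the nuclei (columns, cluster number in parentheses). The G2/M-led and S-led columns hold the highest values of 9 genes, while the row of MCPH1 stays between 89.4 and 219.8 CPM.

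With excitatory neuron-like barcodes as the reference, the ratio of the dividing clusters was 29.9 for ASPM in cells and 48.1 in nuclei, 20.6 and 38.1 for KNL1, 17.9 and 14.4 for CIT, 13.4 and 25.1 for WDR62, and 7.69 and 16.0 for STIL. It was 7.60 and 11.1 for CEP152, but 2.56 and 3.89 for CENPJ and 2.87 and 3.34 for CDK5RAP2, and 0.886 and 0.977 for MCPH1. With radial glia-like barcodes as the reference, ASPM stood at 11.4 in cells and 9.01 in nuclei, and CEP152 at 3.06 and 2.78. Of the 4 radial glia-like clusters of the nuclei, 2, with 788 and 898 barcodes, had 18 and 22 of 39 S markers raised, and they were counted among the other barcodes in the ratios above. CENPJ and CDK5RAP2 thus kept a level in neuron-like barcodes that was within 4-fold of the dividing clusters. Relative to the background, CENPJ in neuron-like barcodes was at 0.745 in cells and 0.671 in nuclei, and CDK5RAP2 at 0.653 and 0.667, while ASPM was at 0.140 and 0.0820.

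In the cells, all barcodes outside the dividing clusters together lay nearer to the background than neuron-like barcodes did. ASPM stood at 91.6 CPM in them, 0.693 of its background level of 132 CPM, and KNL1 and CIT at 0.681 and 0.715. The cluster of 458 deep barcodes had 158 CPM of ASPM, 77.4 of CIT and 69.8 of KNL1, beside background levels of 132, 79.2 and 72.7 CPM. Without it the ratios of ASPM, KNL1 and CIT in cells were 7.08, 6.04 and 6.39. The part of background RNA in these ratios was not tested. A further cluster of 760 cells had 34 of 42 G2/M and 33 of 39 S markers raised, but was led by other genes and stayed unnamed. ASPM was at 294 CPM and CIT at 234 CPM there, and with this cluster counted as dividing the ratios were 5.65 for ASPM, 6.18 for CIT and 5.81 for KNL1. An unnamed cluster of 940 cells had 18 of 39 S and 7 of 42 G2/M markers raised. In the nuclei, an unnamed cluster of 490 barcodes (median 9710 transcripts) had 10 of 42 G2/M markers raised and the marker BIRC5 among its leading genes. Both were counted among the other barcodes, and ratios with them as dividing were not read. Within the dividing cells, ASPM was at 619.5 CPM in the deeper and 315 CPM in the shallower cluster, and CIT at 394 and 122 CPM, where the G2/M panel was at 8894 and 4745 CPM. The part of depth in this difference was not tested.

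G2/M-led and S-led nuclei were then compared, to ask at which stage each gene was highest. ASPM showed the largest difference of the 10, at 6.05-fold (5.69 to 6.45), with 5.98 and 6.16 in the 2 sub-libraries. KNL1 followed at 2.76 (2.58 to 2.97), CIT at 2.45 (2.30 to 2.61), and STIL at 1.86 (1.67 to 2.08, 163 against 87.7 CPM). These 4 of 10 genes passed 1.5-fold, compared with 6.76% of 12323 genes, and the G2/M marker panel itself differed by 3.35-fold. CEP135 stood at 1.41 (1.30 to 1.54), CDK5RAP2 at 1.27 (1.21 to 1.34) and WDR62 at 1.15 (1.03 to 1.28). WDR62 stood at 138 and 119.9 CPM in these clusters, beside 22.3 CPM in radial glia-like nuclei. CENPJ (0.982, 0.896 to 1.08) and CEP152 (0.960, 0.887 to 1.04) had intervals that included 1, and MCPH1 was lower in G2/M-led nuclei at 0.793 (0.714 to 0.879). In both sub-libraries MCPH1 lay below 1, at 0.710 and 0.871.

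**Figure D3:**
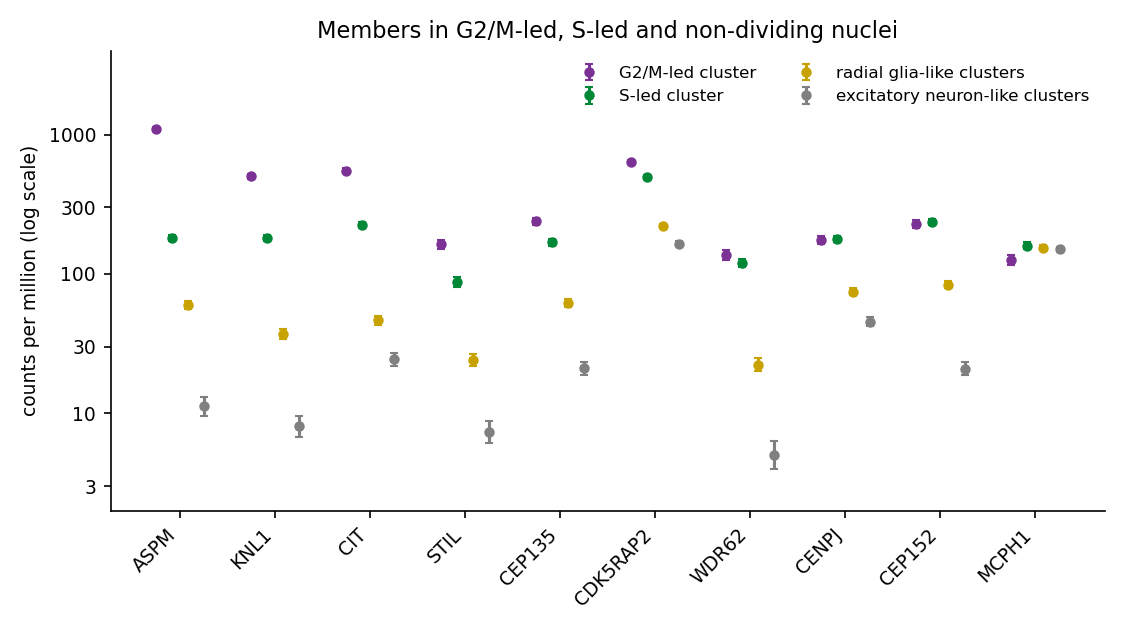
CPM (y axis, log scale) of each gene (x axis, ordered by the ratio of G2/M-led to S-led nuclei) in the G2/M-led cluster (purple), the S-led cluster (green), radial glia-like clusters (yellow) and excitatory neuron-like clusters (grey) of the nuclei, with exact 95% counting intervals. ASPM drops from 1098 to 181 CPM between G2/M-led and S-led nuclei, while CEP152 stands at 227 and 237 CPM.

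No cluster of the cells was S-led. Instead, barcodes of the dividing clusters were divided by whether they had more G2/M marker or more S marker transcripts after thinning to 1000 transcripts, which gave 1385 and 580 barcodes. ASPM was 3.82-fold higher in the former, KNL1 2.08-fold, CIT 1.59-fold and STIL 1.56-fold, and CEP152, CENPJ and WDR62 were at 0.707, 0.858 and 0.920. The same division of the dividing nuclei (995 and 949 barcodes) gave 5.55 for ASPM, 2.64 for KNL1, 2.19 for CIT and 1.70 for STIL, and 1.00 for CEP152, 1.02 for CENPJ and 1.22 for WDR62. Over all nuclei divided in this way (1889 and 3870 barcodes), CEP135 stood at 1.64 and WDR62 at 1.59, above 1.5-fold, unlike between the clusters. Over all cells (4765 and 5228 barcodes), CEP152 stood at 1.17, CENPJ at 1.07 and WDR62 at 1.34, above 1, unlike within the dividing cells.

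A reading without clusters used the number of G2/M marker transcripts in each barcode after thinning to 1000. ASPM went from 31.5 CPM in cells with none to 59.2, 107 and 327 CPM in those with 1, 2 and 3 or more, and from 13.9 to 28.0, 85.4 and 543 CPM in nuclei. With 3 or more against none, KNL1 was 6.96-fold higher in cells and 26.2-fold higher in nuclei, and CIT 7.98-fold and 14.7-fold. Without thinning, these ratios were 3.76 and 18.6 for KNL1, 4.45 and 9.01 for CIT, and 4.70 and 22.8 for ASPM. At least 2-fold differences were found for 7 of the 10 genes in cells and 9 of 10 in nuclei, compared with 2.1% of 14885 and 4.95% of 12657 genes. CENPJ (1.94) and CDK5RAP2 (1.51) stayed under 2-fold in cells but reached 2.97 and 2.82 in nuclei, and MCPH1 stood at 1.01 and 0.949. At 10 or more G2/M transcripts, found in 602 cells and 633 nuclei, ASPM was at 1012 and 1316 CPM, and CDK5RAP2 at 435 and 633 CPM. MCPH1 was then at 113 CPM in cells (87.7 to 143) and 115 CPM in nuclei (90.4 to 145). These classes are ranges of a score and not cell types, and 3018 cells and 1253 nuclei lay just below the class of 3 or more, at 2 transcripts.

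**Figure D4:**
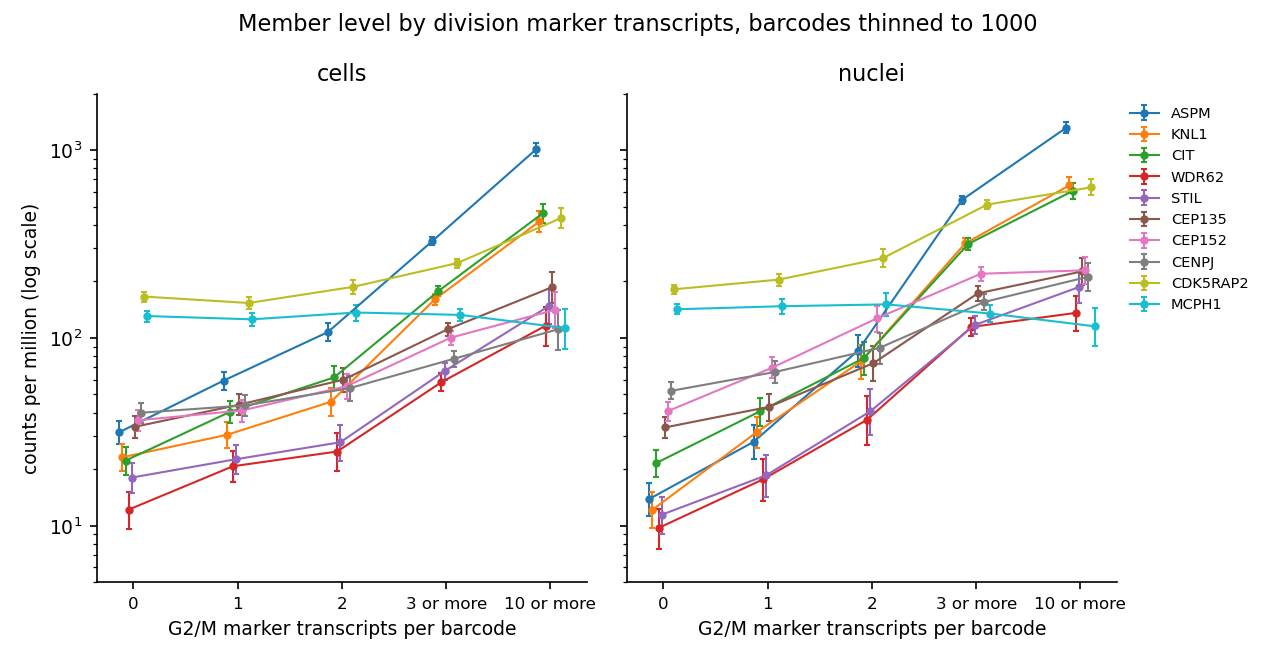
CPM (y axis, log scale) of each gene in barcodes thinned to 1000 transcripts, by the number of G2/M marker transcripts per barcode (x axis), in cells and nuclei, with exact 95% counting intervals. The class of 10 or more is contained in that of 3 or more. ASPM climbs to 1012 CPM in cells and 1316 CPM in nuclei, and MCPH1 lies between 113 and 151 CPM.

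Detection in single barcodes was compared at an equal depth of 1000 transcripts. A transcript of ASPM was found in 61.7% of G2/M-led nuclei (58.2 to 65.1, median depth 4726 before thinning), 18.2% of S-led nuclei, 4.46% of radial glia-like nuclei and 0.782% of excitatory neuron-like nuclei (0.511 to 1.14, median 3965). In cells it was found in 31.5% of dividing barcodes (29.6 to 33.5, median 2087) and 1.65% of neuron-like barcodes (1.08 to 2.41, median 7256). KNL1 was found in 44.6% of G2/M-led and 0.902% of neuron-like nuclei, and CIT in 40.0% and 2.32%. CDK5RAP2 was found in 45.4% of G2/M-led, 38.7% of S-led, 19.3% of radial glia-like and 15.6% of neuron-like nuclei. MCPH1 was found in 10.6%, 13.0%, 12.3% and 12.5% of the same classes. At least 1 of the 10 genes was detected in 77.8% of dividing cells and 89.5% of dividing nuclei, and in 35.7% of neuron-like cells and 36.0% of neuron-like nuclei. Dividing nuclei had a mean of 2.21 of the 10 genes detected, and 38.1% had 3 or more, compared with 0.577 and 2.99% in all other nuclei. Dividing cells had a mean of 1.55, and 20.4% had 3 or more, compared with 0.625 and 3.07%.

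Levels were also read in the choroid plexus-like cluster led by cilia genes, among them TEKT1 and CDC20B. Choroid plexus epithelium is multiciliated, and multiciliated cells build many centrioles without dividing. The cluster held 558 cells and 352 nuclei, with 7 and 6 of the 7 choroid plexus markers raised and a G2/M panel of 897 and 626 CPM, below that of all non-dividing barcodes (1547 and 1100 CPM). STIL was at 63.1 CPM in these cells and 33.3 CPM in these nuclei, 2.32-fold (2.10 to 2.56) and 1.43-fold (1.18 to 1.71) the level in the other non-dividing barcodes, and CEP152 at 79.9 and 97.1 CPM, 1.73-fold (1.59 to 1.89) and 1.54-fold (1.38 to 1.71). CEP135 stood at 1.13 and 1.15. In the same cluster ASPM was at 0.305 and 0.420, CIT at 0.457 and 0.393, WDR62 at 0.520 and 0.385, CENPJ at 0.545 and 0.429 and MCPH1 at 0.542 and 0.602. Genes at 1.5-fold or more made up 18.4% of those read in cells and 18.4% in nuclei, so that 2 of 10 in cells and 1 of 10 in nuclei are shares near the background and no result about the 10 genes as a group. The reference of these ratios was all barcodes outside the dividing clusters and this cluster, and it held clusters with division markers raised. Against excitatory neuron-like barcodes, ASPM was instead higher in this cluster, at 29.0 against 18.5 CPM in cells and 27.1 against 11.2 CPM in nuclei. KNL1 and WDR62 were also higher in both libraries, and CIT in cells only. CENPJ was lower, at 26.6 against 43.3 CPM and 27.9 against 45.5 CPM, as was MCPH1.

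**Figure D5:**
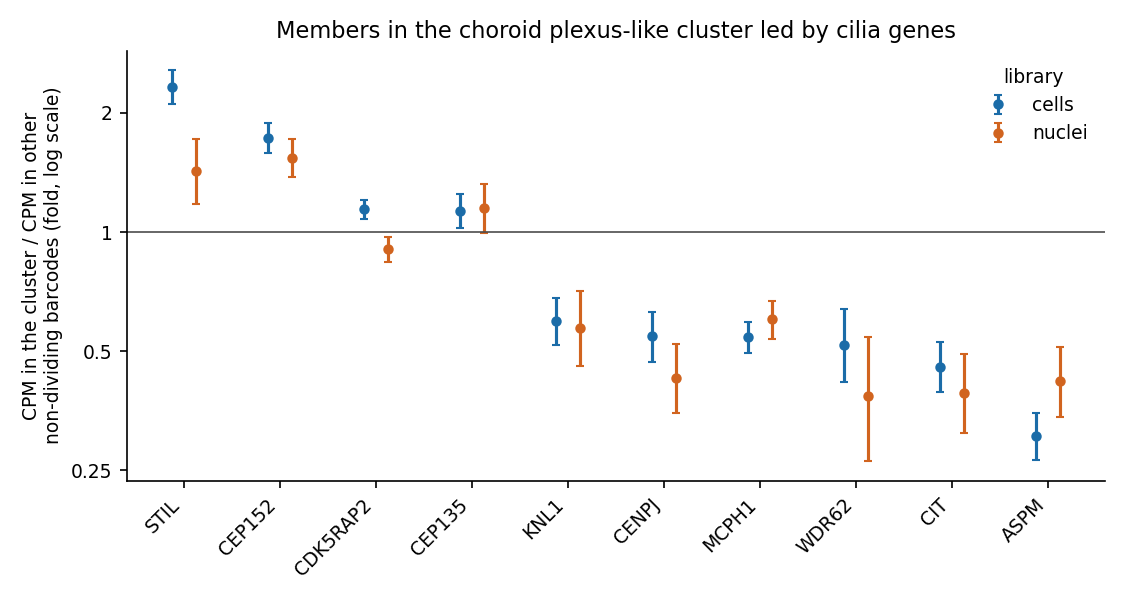
Ratio of CPM in the choroid plexus-like cluster led by cilia genes to CPM in the other non-dividing barcodes (y axis, log scale) for each gene (x axis), in cells (blue, 558 barcodes) and nuclei (orange, 352 barcodes), with exact 95% counting intervals. Non-dividing barcodes are those outside the G2/M-led and S-led clusters. STIL and CEP152 lie above 1 in both libraries, and ASPM, CIT, WDR62, CENPJ, KNL1 and MCPH1 lie below.

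Per kilobase of annotated exon, ASPM had the highest level of the 10 in cells (10.6 CPM per kilobase) and CENPJ in nuclei (13.9), followed in nuclei by ASPM (11.4), CEP152 (11.2) and CDK5RAP2 (10.0). CIT and WDR62 were lowest in both libraries, at 2.74 and 2.51 in cells and 3.45 and 3.13 in nuclei. Exon lengths ran from 5816 bases for CENPJ to 28605 for CIT, and intronic reads are not separated in these counts. The order depended on the length used. Per kilobase of gene span, ASPM was highest in both libraries (2.04 in cells and 2.18 in nuclei, where CENPJ was at 1.98). CIT was then lowest in both (0.409 and 0.516), and WDR62 (0.608 and 0.758) lay above STIL and MCPH1. Over all kept barcodes, the CPM of ASPM was 128 in cells (126 to 129) and 136 in nuclei (134 to 139), and over the 8 sub-libraries of the cells its lowest, median and highest values were 109, 129 and 144 CPM. CDK5RAP2 was at 194 CPM in cells and 271 CPM in nuclei, CEP152 at 55.6 and 91.4, and CENPJ at 52.6 and 80.6. These 3 genes and the other 7 had higher CPM in nuclei, by 1.07 to 1.64 times. The share of all genes with higher CPM in nuclei was not read, so this is no result about the 10 genes. The libraries differed in material, days and treatments, so the values stand side by side only. Over the 46 first-round wells of the cells for which a level was read, ASPM ranged from 39.6 to 351 CPM and MCPH1 from 69.4 to 192 CPM.

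All 10 genes lie on autosomes (GRCh38, GENCODE release 44). ASPM (ENSG00000066279) spans chr1:197084121-197146694 on the minus strand, and STIL (ENSG00000123473) chr1:47250139-47314892. WDR62 lies at chr19:36054649-36105108, where it overlaps THAP8 by 91 bases on the opposite strand. CDK5RAP2 spans chr9:120388875-120580170, CENPJ chr13:24882279-24922889, CEP152 chr15:48712928-48811146, CEP135 chr4:55948871-56033361, KNL1 chr15:40594020-40664342 and CIT chr12:119685791-119877320. MCPH1 spans chr8:6406592-6648508. Apart from MCPH1 and WDR62, no member overlapped a gene with more than 21 counts in either library.

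Likeness of pattern was read as Pearson's r of log2(CPM + 5) over the 19 clusters of the nuclei, which share 1 library, among 11691 genes with at least 500 counts. The genes most like ASPM were NUF2 (0.986), TPX2 (0.981) and CDC25C (0.980), all genes of mitosis. CIT was most like NDC80 (0.974), KNL1 (0.963) and KIF18B (0.962). CDK5RAP2 was most like CEP295 (0.952), POC1A (0.944) and CEP192 (0.935), which encode centriole or centrosome proteins. CENPJ was most like C1orf112 (0.958), DNA2 (0.940) and DSCC1 (0.938), of which DNA2 and DSCC1 take part in DNA replication. NUF2, TPX2, CDC25C and NDC80 are on the G2/M list and DSCC1 is on the S list. These lists named the clusters, so likeness to their genes is not independent of them. Among the 10 genes, r was highest between WDR62 and KNL1 (0.973), followed by ASPM and KNL1 (0.971), and that of MCPH1 with the others lay between -0.197 and 0.348.

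A wider list of 38 other genes, chosen as linked to microcephaly and not only to its primary form, was read in the same way. Of these, 6 were bound in cells and 7 in nuclei, beside the background of 0.573% and 0.963%. Broad genes numbered 23 and 21, beside 81.5% and 79.2% of all genes. KIF14, a kinesin of cytokinesis, was highest at 6.01 and 8.78, followed by CENPE, a kinetochore motor, at 5.72 and 7.55, and NCAPH, a condensin subunit, at 5.63 and 6.44. PLK4, POC1A and NDE1 were also bound in both libraries. Of the genes of replication origins on the list, ORC1 (2.73 and 3.12), ORC6, CDC6 and CDT1 were intermediate in both libraries, and ORC4 was broad in both, at 0.988 and 0.752. COPB2, a coatomer subunit of vesicle traffic, was lowest at 0.733 and 0.707. The median of the list was 1.36 in cells and 1.66 in nuclei. Among the markers that named the clusters, and so not independent of them, the highest and lowest ratios were those of HJURP (8.28) and LBR (1.82) of the G2/M list and RRM2 (6.11) and TIPIN (1.18) of the S list in cells, and of DLGAP5 (9.30) and LBR (1.73), and E2F8 (6.97) and UNG (0.968), in nuclei.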

How the data were processed

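Cells and nuclei of H9 cerebral organoids were profiled by split-seq. The authors divided the reads among 8 and 2 sub-libraries, allowing 1 mismatch, and processed them with spipe v1.0.3 on GRCh38 release 108. The deposited values are whole-number counts of transcripts per barcode and gene, unfiltered and not normalized. All barcodes of a library carry 1 sample name, so each library was 1 sample, no group was compared and no test was run.

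Filters asked for over 500 genes, over 1000 transcripts and a mitochondrial share of no more than 20%. Medians of 2615 and 3890 transcripts limit detection in single barcodes. Scrublet marked 0 barcodes as doublets in both libraries, so none were removed and doublets may remain, and its highest scores were used only in an alternative. Clusters were built with scanpy 1.11.5 from 2000 variable genes (10 members and mitochondrial genes left out), 30 components, 15 neighbours and Leiden resolution 1. A marker counted as raised at 1.5 times the other barcodes and in at least 5% of a cluster. A name needed 0.5 of a list and at least 3 markers in at least 100 barcodes, lists within 0.72 of the leading share were named together, and leading genes had to be found in at least 10% of the cluster. Counts were summed and scaled to CPM, with exact Poisson, binomial and conditional binomial intervals (scipy 1.17.1). Folds were read for all genes with at least 50 counts.

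Named genes are the 10 members, the highest and lowest of the other lists, and the 3 genes most like ASPM, CIT, CDK5RAP2 and CENPJ. Further genes of the wider microcephaly list and the gene overlaps were chosen after their values were seen. The set of members, the lists and the comparisons were proposed with earlier results of these data known, although the rule for members uses no value. Alternatives changed folds, filters, doublets, resolution, references, weighting, thinning, minimum counts, motifs and sub-libraries, and a few were added after the data were seen. Ratios and motif searches were tested on simulated data. Condition, day and organoid were not analysed here.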

Additional observations from a re-analysis of the deposited data

Results flagged for a closer look

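Transcripts of the 10 genes were also found outside the kept barcodes, in those of 10 to 100 transcripts, which served above only as the background level. They numbered 29837 in the cells, 869 CPM of 34343756 background transcripts, beside 835 CPM in the kept cells. In the nuclei they numbered 6430, 982 CPM of 6547075 background transcripts, beside 1053 CPM in the kept nuclei. They are listed because they exceed the 3 counts that a value of 0 allows, which counts of this size could not fail to do.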

How the results depend on the processing

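In the ratio of dividing to other barcodes, ASPM, KNL1 and CIT stayed at least 4-fold higher in the alternatives that gave a ratio, except where 1 dividing cluster was used alone. With the larger cluster of the cells, 0 genes were bound, compared with 0.334% of all genes, and 7 were broad. With the S-led nuclei, 3 were bound, compared with 0.707% of all genes, and ASPM was at 2.92. MCPH1 was broad throughout, on both sides of 1 (0.880 to 1.09 in cells, 0.873 to 1.13 in nuclei). In cells, 7 genes in place of 4 were bound with a limit of 3-fold, and 7 with excitatory neuron-like barcodes as the reference. Apart from the bound counts of single dividing clusters, the share of all genes was not read for the counts given here. In cells, 2 genes in place of 1 were broad when barcodes were chosen by division marker transcripts (CDK5RAP2 at 1.60) or when the mean over barcodes was used (CDK5RAP2 at 1.87), and WDR62 fell under 4-fold, to 3.53, with that mean. Leaving out 1 sub-library at a time gave 4 to 5 bound genes in cells, 5 to 6 in nuclei, and 1 broad gene in each. The intermediate call of STIL in cells ended in many settings. It was at 4.58 in the smaller dividing cluster alone, 4.01 to 4.67 above 2000 transcripts, with at most 10% mitochondrial transcripts, without the deepest cluster or the highest doublet scores, at resolution 0.5 and with division markers left out of the clustering, 5.41 and 7.69 against radial glia-like and neuron-like barcodes, 4.03, 4.04 and 4.00 without sub-library 3, 4 or 8, and under 4 in the other settings, up to 3.97. CEP135 in nuclei was under 4-fold without sub-library 1 (3.95), in S-led nuclei alone (3.51), at resolution 2 (3.74) and against radial glia-like nuclei (3.17). The G2/M comparison gave 4 genes without either sub-library of the nuclei. By number of G2/M transcripts, CENPJ in cells passed 2-fold at 2000 transcripts (2.15), and without thinning CEP152 in cells (1.66) and CDK5RAP2 in nuclei (1.78) were under it. At least 1 member was detected in 94.9% of dividing cells and 98.0% of dividing nuclei at 2000 transcripts, and in 89.9% and 99.3% without thinning. The summed level of the 10 genes in cells, 835 CPM, was 843 with at most 10% mitochondrial transcripts and 825 to 845 without 1 sub-library, and that in nuclei, 1053 CPM, was 1063 above 2000 transcripts and 1049.6 to 1055 without 1 sub-library. Apart from MCPH1, the genes stayed higher in dividing barcodes in the alternatives run. Clustering the nuclei without division markers left no dividing cluster, and resolution 0.5 left no separate S-led nuclei, so the former gave no ratio and the latter no G2/M comparison. The cause of the changes was not tested.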
